A study of Canis lupus familiaris with 6 samples.

Results

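The miR-148 family is a set of 3 related microRNAs, cfa-miR-148a, cfa-miR-148b and cfa-miR-152, among the 289 canine miRNAs of an Agilent array. Members were taken by name from the gene name column of the scanner files, with every probe and spot of each. Each member had 2 probes, and each probe had 20 spots on each of the 6 arrays, which gave 720 spots in all. Of these, 36 carried an outlier flag and were left out, 684 were used, and 0 were saturated.

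The samples came from canine mammary cancer cell lines, of which there were 3 (CMT-U27, CMT-U309, P114). Staining was for Sca1 (stem cell antigen 1), a surface protein used to sort stem and progenitor cells. Flow cytometry separated them into Sca1+ cells, which the labels call cancer stem cells, and Sca1- cells, which they call the control. With 1 Sca1+ and 1 Sca1- sample from every line, each fraction had 3 samples, and total RNA of each was hybridised to 1 array. All samples shared the serum-containing culture medium and the staining, and no genotype or drug is named for any of them. The descriptions of both P114 samples speak of growth with macrophages and those of the other 4 samples of mono-culture, while titles and sources name only the line and the fraction. The labels do not say whether the samples came from separate cultures, so the p-values speak for the spread of these samples alone, and that spread may be technical. Since each sample was a bulk extract, fewer cells with a miRNA and less of it per cell cannot be told apart.

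MicroRNAs are short RNAs that pair through their seed, near the 5′ end, with messenger RNAs and lower their stability or translation. miR-148a, miR-148b and miR-152 share a seed and come from separate genes. In human cells the family is known for targeting DNMT1, the methyltransferase that copies DNA methylation at replication, and miR-148a and miR-152 are often reported at lowered levels in human breast cancer.

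The array reads the 3′ portions of the miRNAs, and the probe sequences show where the members differ in the bases it reads. The longer probe of each member is given first as printed on the array, 5′ to 3′, with capitals at the bases that differ from the longer cfa-miR-148a probe.
cfa-miR-148a: acaaagttctgtagtgcact
cfa-miR-148b: acaaagttctgtGAtgcac
cfa-miR-152: cCaagttctgtCAtgc
The stretches of RNA that pair with these probes, 5′ to 3′, carry the same capitals.
cfa-miR-148a: agugcacuacagaacuuugu
cfa-miR-148b: gugcaUCacagaacuuugu
cfa-miR-152: gcaUGacagaacuuGg
Counted from the 5′ end of the longer cfa-miR-148a probe, the cfa-miR-148b probe differed by A13G and G14A and had the same base at 17 of 19 aligned positions. The cfa-miR-152 probe, which starts 1 base further in, differed by A3C, A13C and G14A and had the same base at 13 of 16. The shorter probe of each member lacks the last base of the longer one. All 6 probes pair with the 9-base stretch acagaacuu, which no other probe among the 656 on the array covers. Whether RNA of 1 member binds the probes of another was not tested.

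The scanner files place the longer probes on canFam2 at chr14:42259260-42259278 for cfa-miR-148a, chr27:3975907-3975924 for cfa-miR-148b and chr9:27662481-27662495 for cfa-miR-152. The files list each position in descending order, and each mapped span is 1 base shorter than its probe. In the RefSeq annotation of the dog assembly UU_Cfam_GSD_1.0, MIR148B lies within COPZ1 and MIR152 within COPZ2, which encode zeta subunits of the COPI vesicle coat, and MIR148A overlaps no other gene. Exon or intron position was not analysed here.

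The family was measurable on 3 of the 6 arrays, the bright ones. Arrays B1, B2 and B3 detected 111, 91 and 89 miRNAs by the scanner software's flag, and their total gene signals summed to 69282, 70794 and 70162 intensity units. The dim arrays had 39 (D1), 22 (D2) and 9 (D3) detected miRNAs, and their summed signals were 3228, 1277 and 320 intensity units. The attached scanner files make B1 and B2 the Sca1+ and Sca1- samples of CMT-U309, D3 and B3 those of P114, and D1 and D2 those of CMT-U27. The deposited value table disagrees with the scanner files on 4 of the 6 arrays: it makes B1 and B3 the Sca1+ and Sca1- samples of P114, D1 and B2 those of CMT-U27, and D2 and D3 those of CMT-U309. Which assignment is right was not settled. Arrays B1 (Sca1+), B2 and B3 (both Sca1-) keep their fraction under both assignments, while the line of B1 and of B2 changes.

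cfa-miR-148a, reported in human breast tumours as a suppressor of invasion, was the member with both of its probes above background on all 3 bright arrays. Its total gene signal, the software's sum over detected probes, was 209 ± 15.8 intensity units on B1 (Sca1+), against 91.3 ± 10.4 on B2 and 135 ± 11.4 on B3 (both Sca1-), each with the software's error. B1 was the highest and B2 the lowest, and the signal on B1 was 2.29 times that on B2 and 1.55 times that on B3. These were 0.302% of the summed signal on B1, against 0.129% on B2 and 0.192% on B3. Without scaling, the median tested miRNA, by its brightest probe, also stood higher on B1, by 0.46 over B2 and 0.55 over B3 (log2). Scaled to the summed signal it stood higher by 0.50 and 0.57, so neither the ratios nor the shares take this out.

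Both cfa-miR-148a probes gave this order. The shorter probe averaged 68.1 ± 4.32 intensity units on B1 (SD, n = 20 spots), against 29.1 ± 2.69 on B2 (n = 20) and 41.4 ± 3.51 on B3 (n = 19). The longer probe averaged 86.2 ± 7.10 on B1 (n = 19 spots), against 38.8 ± 2.99 on B2 (n = 19) and 57.0 ± 5.95 on B3 (n = 20). For both probes the spots of B1 lay above all spots of B2 and of B3, the nearest pair for the longer probe being 76.2 on B1 and 68.9 on B3. Between B3 and B2 the spots of the shorter probe did not overlap, while those of the longer probe did, with a lowest value of 42.8 on B3 and a highest of 45.4 on B2. 1 spot of the longer probe on B1 read 41173 intensity units and was left out through its outlier flag. Spots are technical repeats on 1 array, so their spread is no measure of the difference between samples.

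cfa-miR-148b, encoded on another chromosome, followed the same order by its longer probe. That probe has the same base as the longer cfa-miR-148a probe at 17 of 19 aligned positions, and binding of 1 member's RNA to both was not tested. The total gene signal of cfa-miR-148b was 110 ± 10.98 intensity units on B1 (Sca1+), against 39.7 ± 6.94 on B2 and 60.4 ± 7.42 on B3 (both Sca1-). The software summed 2 probes on B1 and 1 probe on B2 and on B3, so the totals do not cover the same probes. Their ratios were 2.78 for B1 over B2 and 1.83 for B1 over B3, whereas the longer probe alone gave 2.41 and 1.58. As shares of the summed signal the totals were 0.159% on B1, against 0.0561% on B2 and 0.0861% on B3. Neither these ratios nor the shares take out the higher median of the tested miRNAs on B1.

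The longer cfa-miR-148b probe averaged 70.5 ± 3.87 intensity units on B1 (SD, n = 20 spots), against 29.5 ± 2.33 on B2 (n = 19) and 44.1 ± 3.04 on B3 (n = 20), and no 2 of these arrays overlapped in their spots. The shorter probe, 1 base less, averaged 10.9 ± 1.91 on B1 (n = 19 spots), against 3.82 ± 1.47 on B2 (n = 18) and 5.70 ± 1.89 on B3 (n = 20). It stood well above background at 2 of 19 spots on B1, 0 of 18 on B2 and 0 of 20 on B3, and its spots on B1 overlapped those on B3. The negative control spots of these arrays averaged 2.16 ± 2.39 on B1, against 2.87 ± 2.95 on B2 and 3.03 ± 2.57 on B3 (SD, n = 421, 417 and 416 spots). On B2 the mean of the shorter probe lay within 1 SD of these controls, and on B3 just outside it.

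cfa-miR-152, which lies within COPZ2 and is reported at lowered levels in several human tumours, was close to the limit of detection. Its total gene signal was 17.0 ± 4.05 intensity units on B1 (Sca1+) and 16.2 ± 4.59 on B3 (Sca1-), and it was not detected on B2 (Sca1-). These totals came from the longer probe, which averaged 12.6 ± 2.46 on B1 (SD, n = 20 spots), against 9.26 ± 3.58 on B2 (n = 19) and 11.8 ± 2.12 on B3 (n = 20). The spots of the 3 arrays overlapped, and 8 of 20 stood well above background on B1, 0 of 19 on B2 and 1 of 20 on B3. The shorter probe averaged -2.71 on B1, against -2.79 on B2 and -2.05 on B3, with 0 spots well above background on any of them. The 2 probes of cfa-miR-152 did not give the same detection.

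On the dim arrays no member was detected. Of 336 used spots on D1, D2 and D3, 0 stood well above background and 217 read at or below 0. Mean signals of the 6 probes on these arrays lay between -4.17 and 2.03 intensity units, and the highest single spot read 5.69. The negative control spots averaged 3.81 ± 2.52 on D1, 3.55 ± 2.25 on D3 and 3.79 ± 2.45 on D2 (SD), above every one of these probe means. A difference between a bright and a dim array could not be sized for any member. After scaling, the faintest probe that a dim array still measured lay above the members' levels on the bright arrays, so no lower bound on a fold could be set.

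**Figure D1:**
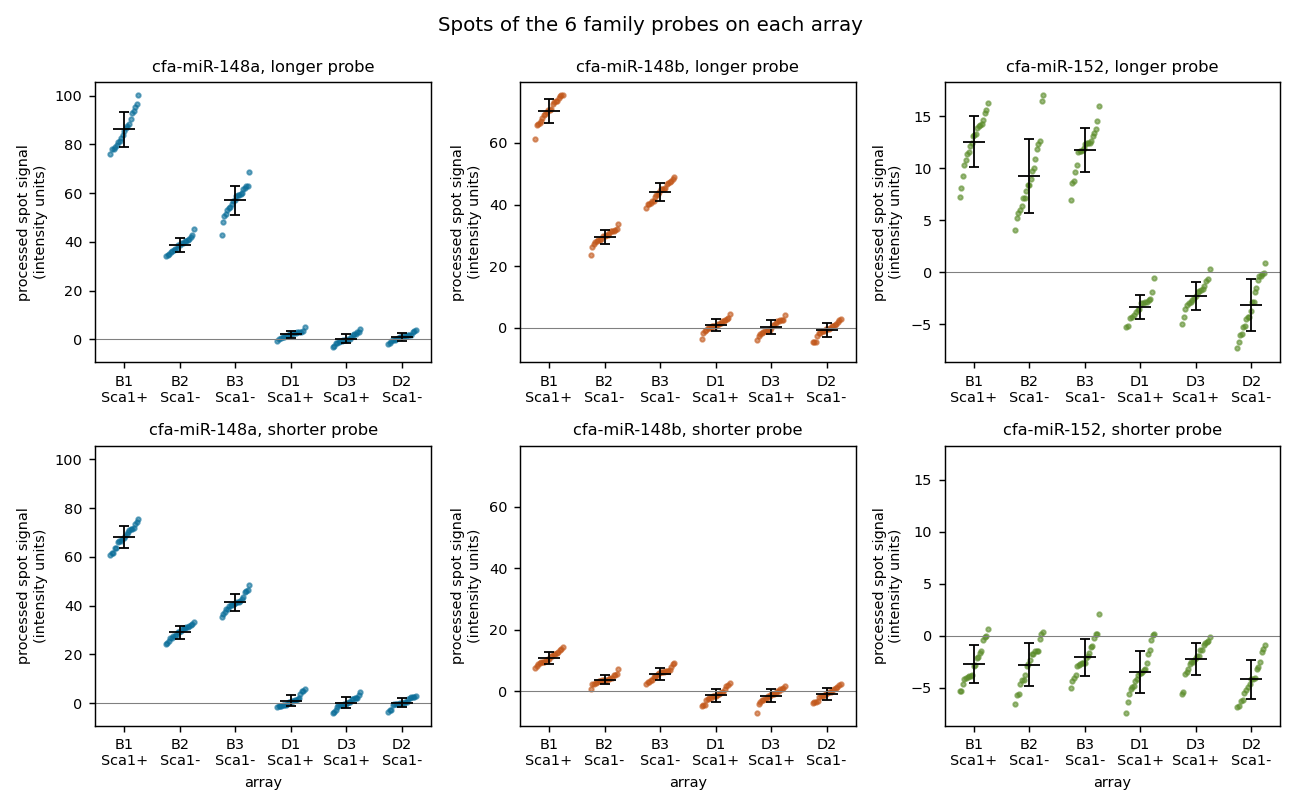
Processed signal (vertical axis, intensity units) of every used spot of the 6 family probes on each array (horizontal axis, with the fraction by scanner file). Points are spots in rising order, and bars are the mean and SD over spots. The cfa-miR-148a probes and the longer cfa-miR-148b probe run highest on B1, next on B3 and lowest on B2, the shorter cfa-miR-148b and both cfa-miR-152 probes are near background, and all probes lie around or below 0 on D1, D3 and D2.

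How far Sca1+ and Sca1- cells differ rests on the scaling between arrays. Each bright array was scaled by the 75th percentile of 122 probes that stood well above background on B1, B2 and B3. After this scaling B1 (Sca1+) stood above B2 (Sca1-) by 2.14-fold for the shorter and 2.02-fold for the longer cfa-miR-148a probe. The longer cfa-miR-148b probe gave a ratio of 2.17. Ratios of the shorter cfa-miR-148b probe and of both cfa-miR-152 probes are not given, since none of them stood well above background on B2. The median tested miRNA also stood higher on B1, by 0.33 on the log2 scale, while these 3 probes stood higher by 1.02 to 1.12. The difference from B2 had 1 direction for all 3 probes under all 7 combinations of scaling, background and spot averaging that were run. These reuse the same arrays, and several only shift a whole array by a constant, so they are not independent checks. Its lowest value over them was 1.32-fold for the longer and 1.504-fold for the shorter cfa-miR-148a probe, and 1.58-fold for the longer cfa-miR-148b probe.

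Against B3 (Sca1-) the same probes stood closer to B1 (Sca1+). The ratios of B1 over B3 were 1.16 for the shorter and 1.07 for the longer cfa-miR-148a probe, and 1.13 for the longer cfa-miR-148b probe. The median tested miRNA differed by 0.05 on the log2 scale. Each of the 3 probes was higher on B1 in 5 of 7 settings and lower with quantile scaling and with scaling over all probes. Scaling over all probes moved the median tested miRNA to -0.60 on the log2 scale, and the 3 probes lay above that median by 0.05 to 0.17. These distances equal those with 122 shared probes by construction, since both settings shift a whole array by a constant. With quantile scaling the median was -0.08 and the 3 probes lay below it. By scanner file B1 and B2 are the Sca1+ and Sca1- samples of 1 line, CMT-U309, and by value table B1 and B3 are those of P114, so which ratio compares fractions of the same line is not settled. With 1 array on each side these ratios have no replicate check.

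**Figure D2:**
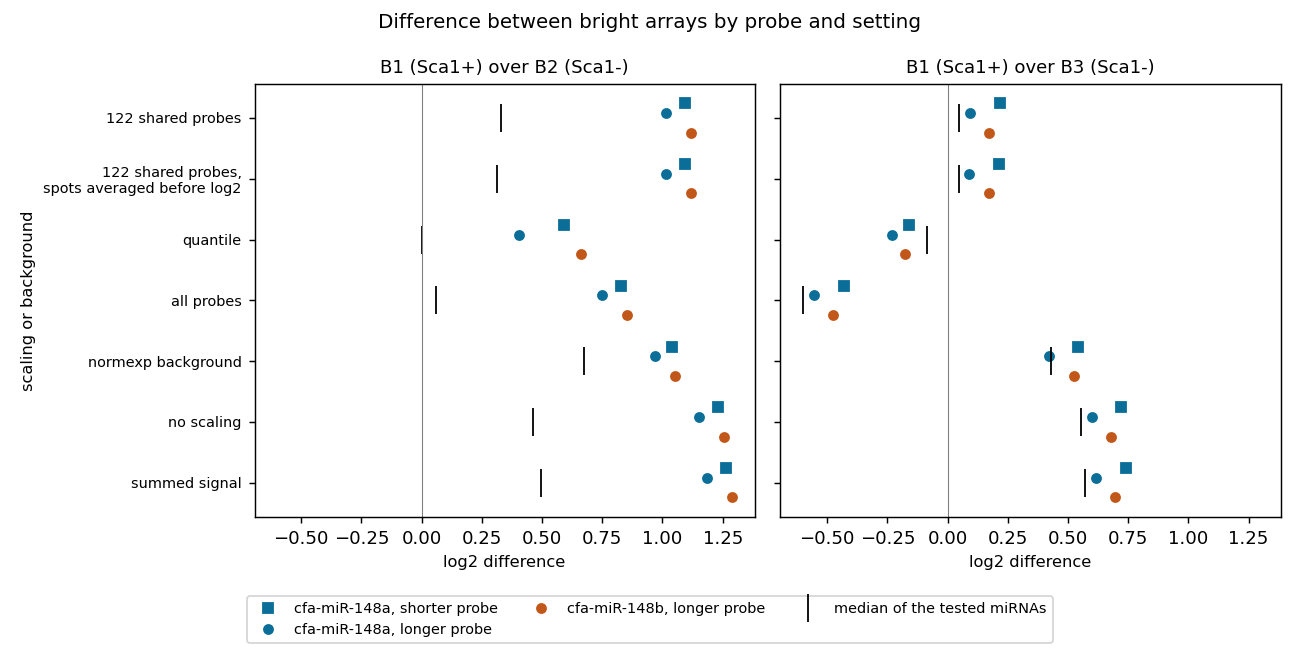
Log2 difference (horizontal axis) of B1 (Sca1+) over B2 (left) and over B3 (right, both Sca1-) for both cfa-miR-148a probes and the longer cfa-miR-148b probe under 7 settings (vertical axis), with the median of the 90 tested miRNAs as a bar. Against B2 the probes lie above 0 and above the median in all 7 settings, and against B3 they lie near the median, which itself runs from -0.60 to 0.57. By construction the distance to the median is equal with shared probes, all probes, no scaling and summed signal, which shift whole arrays.

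The test over the bright arrays compared B1 (Sca1+) with B2 and B3 (Sca1-) in limma, with 1 residual degree of freedom and the brighter probe of each miRNA. No member passed. cfa-miR-148a differed by a log2 value of 0.55 (SE 0.52, adjusted p = 0.477 with limma), which is 1.47-fold. For cfa-miR-148b it was 0.65 (SE 0.53, adjusted p = 0.443 with limma), which is 1.57-fold, and for cfa-miR-152 it was -0.02 (SE 0.47, adjusted p = 0.961 with limma). The cfa-miR-152 probe stood well above background at 8 of 20 spots on B1, 0 of 19 on B2 and 1 of 20 on B3. In this comparison 4 of the 90 tested miRNAs passed, which is 4.44%, and 50 of 90, or 55.6%, had a difference above 0, as did 2 of the 3 members. Testing required detection on 2 bright arrays. A miRNA detected on B1 alone was therefore never tested, while a miRNA detected on B2 and B3 alone was, which bears on the direction of the calls. The median was 0.55 over the 3 members and 0.18 over the tested miRNAs, and cfa-miR-148b and cfa-miR-148a stood at ranks 22 and 27 of 90 from the top. For these p-values limma drew each miRNA's spread between the Sca1- arrays toward a value pooled over the tested miRNAs. The single Sca1+ array is taken to vary as the Sca1- arrays do.

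The call depended on the background correction, and the size of the difference on the Sca1- array. With normexp background all 3 members passed, with log2 differences of 0.70 for cfa-miR-148a, 0.79 for cfa-miR-148b and 0.97 for cfa-miR-152 (adjusted p = 0.0214, 0.0126 and 0.00280 with limma). In that setting 54 of the 90 miRNAs passed, and the median difference over the 90 was 0.55. The standard error was 0.269 for all 3 members, a value pooled over miRNAs and not a member's own spread. The shorter cfa-miR-152 probe, with a mean processed signal below 0 on each bright array, still gave 1.37 over B2 and 1.01 over B3. Over the alternatives the adjusted p with limma ran from 0.0214 to 0.982 for cfa-miR-148a, from 0.0126 to 0.982 for cfa-miR-148b and from 0.00280 to 0.985 for cfa-miR-152. Without B3 the differences were 0.81 for cfa-miR-148a and 0.91 for cfa-miR-148b, and without B2 they were 0.15 and 0.23, in both cases with no test.

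**Figure D3:**
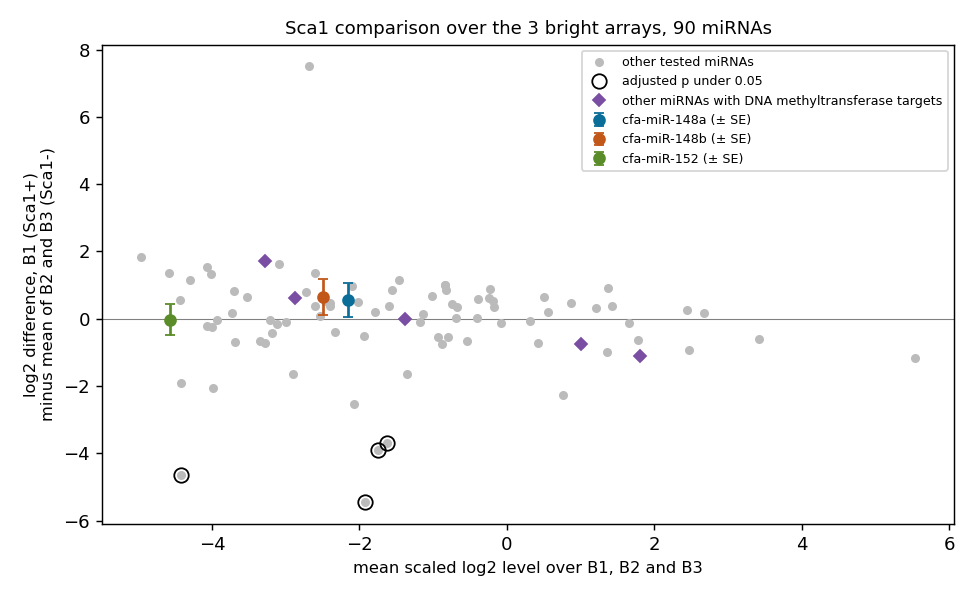
Log2 difference of B1 (Sca1+) minus the mean of B2 and B3 (Sca1-) on the vertical axis against mean scaled log2 level on the horizontal axis for the 90 tested miRNAs. Bars on the 3 family members are standard errors and open circles mark the 4 miRNAs that passed the adjusted threshold in limma. All 4 are lower on B1, and the 3 members lie among the bulk, between -0.02 and 0.65. A miRNA detected on B1 alone could not enter the test, whereas a miRNA detected on B2 and B3 alone could.

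Over all 6 arrays, with the line as a term, the comparison of Sca1+ with Sca1- cells gave no call. Of 80 miRNAs tested, 0 passed in limma, which is 0%, and 0 had an unadjusted p under 0.05. The log2 difference was -1.32 for cfa-miR-148a (SE 2.03, adjusted p = 0.995 with limma) and -0.65 for cfa-miR-148b (SE 1.998, adjusted p = 0.995 with limma), beside a median of -0.81 over the tested miRNAs. cfa-miR-152 was detected on 2 arrays and was not tested. These values take in arrays on which no member was detected, so their sizes carry no order. The value-table assignment also gave 0 calls, with differences of -0.30 for cfa-miR-148a and -2.81 for cfa-miR-148b (adjusted p = 0.945 and 0.792 with limma).

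Differences between the lines were tested in the same model, and no member passed. By scanner file 0 of 80 miRNAs passed in each of the 3 comparisons, which is 0%, with 9 at an unadjusted p under 0.05 for CMT-U309 over CMT-U27 and 0 for each of the other comparisons. P114 over CMT-U309 gave log2 differences of -2.50 for cfa-miR-148a (SE 2.48) and -2.07 for cfa-miR-148b (SE 2.45), each with an adjusted p of 0.791 in limma, and no member was detected on the P114 array D3, so these sizes carry no order either. Neither CMT-U27 array detected a member by scanner file, and differences from that line are not given. By value table, the comparison of CMT-U309 over CMT-U27 had 14 of 80 miRNAs past the threshold (17.5%) and that of P114 over CMT-U309 had 24 of 80 (30%). P114 over CMT-U309 then gave adjusted p-values of 0.0573 for cfa-miR-148a and 0.0506 for cfa-miR-148b in limma, short of the threshold of 0.05, and it sets 2 bright arrays against 2 dim ones.

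The miRNAs whose signals ran most like those of the family were found over B1, B2 and B3 by the root mean square difference of log2 total gene signals, each centred on its own mean, among 77 miRNAs detected on all 3. Nearest to cfa-miR-148a were cfa-miR-148b, at 0.122, cfa-miR-101, at 0.145, and cfa-let-7b, at 0.174. cfa-let-7b belongs to the let-7 family, which promotes differentiation. It read 2406 intensity units on B1 (Sca1+), against 1355 on B2 and 1550 on B3 (both Sca1-). Nearest to cfa-miR-148b were cfa-miR-186, at 0.121, cfa-miR-148a, at 0.122, and cfa-miR-96, a miRNA of the miR-183 cluster known from sensory cells, at 0.141. cfa-miR-186 read 119 intensity units on B1 (Sca1+), against 41.2 on B2 and 53.7 on B3, and cfa-miR-96 read 623 on B1, against 222 on B2 and 276 on B3. All of these were highest on B1 and lowest on B2, an order that their selection by likeness to the members favours. The totals of cfa-miR-148b sum unlike sets of probes, and the order turned when the brightest probe stood for each miRNA on every array, an alternative added after the data were seen. cfa-miR-148a and cfa-miR-148b were then each other's nearest, at 0.0444, and cfa-miR-370 came next for both, at 0.106 from cfa-miR-148a and 0.107 from cfa-miR-148b. The probes of cfa-miR-148a and cfa-miR-148b are close in sequence, and whether RNA of 1 binds the probes of the other was not tested. cfa-miR-101 stood at rank 3 for cfa-miR-148a, while cfa-miR-186 and cfa-miR-96 fell to ranks 11 and 6 for cfa-miR-148b. These are descriptions over 3 arrays that share 1 slide, and cfa-miR-152, detected on 2 arrays, was not placed.

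**Figure D4:**
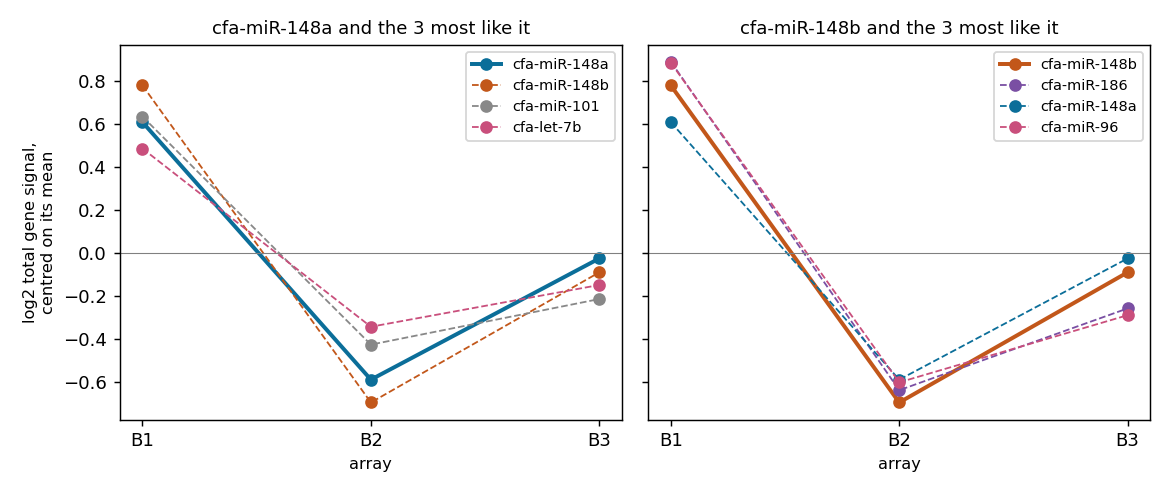
Log2 total gene signal, centred on each miRNA's mean over the 3 arrays (vertical axis), on B1 (Sca1+), B2 and B3 (both Sca1-) for cfa-miR-148a (left) and cfa-miR-148b (right) with the 3 miRNAs most like each. All lines are highest on B1 and lowest on B2, an order that selection by likeness favours. Root mean square differences lie between 0.121 and 0.174 by total gene signal.

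Other miRNAs known from human work to target DNA methyltransferases were set beside the family as a list of 10, of which 5 were tested over the bright arrays. 0 of the 5 passed in either direction, 2 were above 0 and 3 below, and their median log2 difference was -0.02, against 0.18 over all tested miRNAs. cfa-miR-185, which also targets DNMT1, read 138 intensity units on B1 (Sca1+), against 23.3 on B2 and 21.9 on B3 (both Sca1-), and its log2 difference was 1.72 (SE 0.30, adjusted p = 0.0828 with limma). cfa-miR-101 read 133 on B1, against 63.9 on B2 and 74.0 on B3, a log2 difference of 0.63. The miR-29 miRNAs, which target the de novo methyltransferases DNMT3A and DNMT3B, lay the other way or level, at -1.11 for cfa-miR-29b, -0.76 for cfa-miR-29a and -0.02 for cfa-miR-29c. cfa-miR-342 was detected on B1 alone, at 184 intensity units, so the detection filter kept it out of the 5 tested. The counts above and below 0 and the median of the list leave it out. cfa-miR-126, cfa-miR-143, cfa-miR-194 and cfa-miR-217 were detected on no array.

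Several miRNAs used as cell type markers differed between the same arrays. Of 7 epithelial miRNAs, 5 were detected on B1 (Sca1+), 1 on B2 and 0 on B3 (both Sca1-), with summed signals of 5129, 28.9 and 0 intensity units, and cfa-miR-200a and cfa-miR-200b were detected nowhere. On the dim arrays 1 epithelial miRNA was detected, cfa-miR-141 on D2 at 23.9, and 0 mesenchymal ones. Of 5 mesenchymal miRNAs, 1 was detected on B1 and 2 each on B2 and B3, with summed signals of 19.9, 635 and 623. The mesenchymal cfa-miR-140 and cfa-miR-199 were among the 4 miRNAs that passed over the bright arrays, both lower on B1. The epithelial cfa-miR-200c, cfa-miR-429, cfa-miR-203 and cfa-miR-205 were detected on B1 alone and so could not be tested. Of 5 leukocyte miRNAs, 3 were detected on B1 and 2 each on B2 and B3, with summed signals of 948, 219 and 149, and 1 on each dim array. cfa-miR-223, a miRNA of myeloid cells, was detected on all 6 arrays, at 59.6 to 80.9 intensity units. It read 61.2 on D3, with a summed signal of 320, and 80.9 on B2, with a summed signal of 70794. Whether this nearly level signal reflects myeloid RNA was not tested. cfa-miR-155 read 189 on B1, against 139 on B2 and 78.0 on B3, with no detection on the dim arrays. cfa-miR-146a was detected on B1 alone, at 690. cfa-miR-142 and cfa-miR-150 were detected on no array. Of the erythroid miRNAs cfa-miR-144 was detected nowhere and cfa-miR-451 on B2 at 18.1 and on D2 at 39.4, and the endothelial cfa-miR-126 was detected nowhere. The part of these differences in the family's values was not tested.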

How the data were processed

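The deposited scanner files give the intensity of each spot. Agilent Feature Extraction made them, in version 10.10.1.1 per the file headers, whereas the submitters' processing notes name 10.7.3.1. This intensity is background-subtracted by the authors' software and not scaled between arrays. The files hold 1 green channel, while the labels name Cy5, and 1 slide and 1 scan day held all 6 arrays. Each column of the deposited value table equals the total gene signal of a single scanner file (311 features, relative tolerance 0.0001), its own sample's for 2 columns and another sample's for 4, so it is linear and uncentred, and each column's median is 0.1, the value for an undetected miRNA.

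Values at or below 0 were set to the array's lowest positive value, and spots were averaged as log2 without outlier-flagged spots. Arrays were scaled by the 75th percentile over probes well above background on all arrays of the fit (10 probes for 6 arrays, 122 for the 3 bright ones, which detect over 50 miRNAs). The probe with the highest mean stood for a miRNA. miRNAs detected on at least 3 arrays (80), or 2 bright arrays (90), were tested with limma 3.58.1 in R 4.3.3 (files read with data.table, version 1.17.8), with line and fraction as terms (2 residual degrees of freedom) or fraction alone (1), and Benjamini-Hochberg adjustment at 0.05. The line was taken as the pairing because each was sorted into both fractions, per the labels. Whether the fractions shared a culture is not stated, the line of 4 arrays is disputed, and deviations of paired arrays correlated at -0.16 (CMT-U27), 0.58 (CMT-U309) and -0.54 (P114). The script was tested on simulated data.

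Sequences and canFam2 positions come from the scanner files. Mature miRNA sequences were not used here. Named were every member, the 3 miRNAs most like each member detected on at least 3 arrays, and the list of 10 miRNAs with methyltransferase targets. Members and lists were chosen with earlier results of these data known. Alternatives covered background, scaling, low signals, filters, probe summary, array assignment, pairing and leaving out arrays. Spot averaging before log2 and scaling to the summed signal were added after the data were seen. The number of arrays limits the precision.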

Additional observations from a re-analysis of the deposited data

How the results depend on the processing

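Over all 6 arrays 0 miRNAs passed under every alternative, including no replicate block (adjusted p = 0.994 for cfa-miR-148a and for cfa-miR-148b with limma). The sign of both members turned in that fit: cfa-miR-148a had 0.81 (normexp background) and 0.68 (low signals set to the detection limit, here the floor), and cfa-miR-148b had 0.89 and 0.83 there, 2.47 with spots averaged before log2 and 0.45 with scaling to the summed signal. Leaving out 1 dim array gave -2.44 to 0.76 for cfa-miR-148a and -1.93 to 1.31 for cfa-miR-148b, positive without the Sca1+ array D3 of P114. Without a bright array both were detected on under 3 arrays and not tested. For P114 over CMT-U309, cfa-miR-148a had 1.19 with normexp background, 1.93 with the floor, 4.59 by value table and -2.50 to 0.56 with 1 dim array left out, and cfa-miR-148b had 1.20, 2.09, 6.10 and -2.07 to 0.80. Member differences from CMT-U27 are not given, since by scanner file no member was detected there. By value table that line holds B2, which detected 2 members, and the dim array D1, which detected 0. Calls for CMT-U309 over CMT-U27 numbered 1 with total gene signal, 14 by value table and 0 to 8 with 1 array left out (8 without D3), those for P114 over CMT-U27 1 with total gene signal, and those for P114 over CMT-U309 24 by value table. Over the bright arrays calls (0 higher and 4 lower as reported) numbered 54 with normexp background (43 higher, 11 lower), 11 with all-probe scaling (1 higher, 10 lower), 6 with no scaling (1 higher, 5 lower), 0 with quantile scaling, 10 with the floor, 2 with the mean of all probes, 0 with no filter, 8 with detection on every array and 22 with the summed signal (14 higher, 8 lower). There cfa-miR-148a and cfa-miR-148b stayed above 0 in 13 of 13 alternatives, all of which share the single Sca1+ array. The floor, no filter and detection on every array left them unchanged, at 0.55 and 0.65. cfa-miR-152 turned to 0.97 with normexp background, 0.30 with no scaling, 1.18 with the mean of all probes, 3.19 with total gene signal and 0.32 with the summed signal. The 3.19 rests on the value 0.1 for an undetected miRNA on B2. With no scaling and with the summed signal, which shift whole arrays, cfa-miR-152 stayed at -0.20 from the median of the tested miRNAs. The cause of the other changes was not tested. Signal over background limits cfa-miR-152 and the shorter cfa-miR-148b probe.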
